A study of Mus musculus with 12 samples.

Results

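The 10 Toll-like receptor genes described here are Tlr1, Tlr2, Tlr3, Tlr4, Tlr5, Tlr6, Tlr7, Tlr8, Tlr9 and Tlr13. They were taken by symbol from the gene column of 12 tables of raw read counts, in which they are 10 of 24422 features. All 10 passed the filter on low counts, together with the other genes among the 16713 tested. The RNA came from mouse adipose tissue, from its stromal vascular fraction, which is the mixed population of precursor, vascular and immune cells left once mature adipocytes are removed. It was sequenced after poly-A selection. The 12 libraries form 4 groups of 3. Every group carries 1 modified allele of p21 (Cdkn1a), so that mCherry with or without a Tert cassette is expressed from the p21 promoter. SD mCherry (replicates 1, 2 and 3) had the genotype p21+/mcherry on a Standard Diet, and HFD mCherry (replicates 15, 17 and 20) shared that genotype but were fed a High Fat Diet. HFD Tert (replicates 25, 26 and 27) had the genotype p21+/mcherry-Tert on the High Fat Diet. HFD TertCi (replicates 30, 31 and 33) had the genotype p21+/mcherry-TertCi on that diet, where TertCi is a catalytically inactive telomerase reverse transcriptase. The design text of the series names the high-fat control p21+/-, and the sample labels were followed. Because the p21 promoter drives the cassette, Tert is made where and when p21 is transcribed. Fat depot, age and sex are not given in the labels. Nothing in the labels says that the 3 replicates of a group came from separate animals, so the p-values measure the spread between these libraries, which may be technical.

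Toll-like receptors are membrane proteins that bind molecules typical of microbes or of damaged cells and start an inflammatory response. Those at the cell surface bind mainly lipids and proteins, with Tlr2 pairing with Tlr1 or Tlr6. Those in endosomes bind nucleic acids and depend on the chaperone Unc93b1. Most signal through the adaptor Myd88 to NF-kB, while Tlr3 uses Ticam1 and Tlr4 uses both adaptors. In adipose tissue they are expressed by resident and recruited macrophages, and Tlr2, Tlr3 and Tlr4 also by stromal cells.

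The libraries held 16430330 to 19486965 counts. The labels of mCherry against knock-in libraries were checked with Tert, which had 8 to 78 counts in the 6 mCherry libraries and 131 to 304 in the 6 knock-in libraries. The added feature mCherry_Tert had 0 counts in each mCherry library and 33 to 86 counts in each knock-in library. These counts overlapped between HFD Tert and HFD TertCi and between the 2 diets, so those labels were not checked. Summed adipose progenitor markers ran from 2971 to 22537 CPM (counts relative to the scaled library size) and macrophage markers from 458 to 4909 CPM, and neither defining list had a gene at 0 throughout a group. Transcripts of the epididymis, an organ that adjoins the gonadal fat pad, were also present. Crisp1, a secretory gene of that organ, was at 641 CPM or more in 8 libraries and at 0.529 CPM or less in 4. Exactly 1 library of each group lacked it: SD mCherry replicate 2, HFD mCherry replicate 20, HFD Tert replicate 27 and HFD TertCi replicate 31. HFD mCherry replicate 15 had the highest mean of log2 CPM over the epididymis and epithelium list, 9.81 against -0.28 to 8.59 in the other 11 libraries. By summed CPM of that list it was not the highest, at 18325, below SD mCherry replicates 1 (20230) and 3 (58018). HFD Tert replicate 25 (22478) and HFD TertCi replicates 30 (34882) and 33 (28125) were also above it. These libraries recur below, since HFD mCherry replicate 15 was the lowest of its group for 9 of the 10 receptors, HFD Tert replicate 27 the highest of its group for 8, and HFD TertCi replicate 31 the highest of its group for 9.

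In the GENCODE M21 annotation of GRCm38, the assembly also called mm10, Tlr1 (chr5:64924679-64933563) and Tlr6 (chr5:64952031-64960097) are neighbours on the minus strand. They are close paralogs, so reads from their most similar stretches may have been divided or lost in counting. Tlr8 (chrX:167242696-167264329) and Tlr7 (chrX:167304929-167330558) are likewise neighbours on the minus strand, and Tlr13 (chrX:106143204-106160493) lies on the plus strand of the same chromosome. Tlr2 is at chr3:83836272-83841767 on the minus strand, Tlr4 at chr4:66827584-66930284 on the plus strand, Tlr5 at chr1:182954788-182976044 on the plus strand and Tlr9 at chr9:106222598-106226883 on the plus strand. Tlr3 (chr8:45395665-45411080, minus strand) overlaps another annotated gene, Gm45542, and its counts could include reads of that gene.

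RefSeq start sites of 8 of the 10 genes, with Tlr1 and Tlr6 having 2 each, had a promoter window of 300 bases (GRCm38.p6, 250 bases before and 50 after the start). Windows were searched on both strands for GAGGAA, the core of sites bound by the myeloid factor PU.1, and GAAANNGAA, a core of interferon response elements. Among all 32851 windows of that length, 28.3% held GAGGAA and 8.56% held GAAANNGAA. GAGGAA occurred in windows of Tlr1, Tlr8, Tlr9 and Tlr13 and in neither window of Tlr6. GAAANNGAA occurred in those of Tlr6 and Tlr8. Tlr4 and Tlr7 were not searched. Neither was found in the windows of Tlr2, Tlr3 and Tlr5 or in the second windows of Tlr1 and Tlr6, which says only that these letters are not there. A match is a string of letters and not evidence of binding. The stretches that hold the matches are shown 5′ to 3′ on the gene's own strand, ending at the start site or at the first annotated exon base, with matches in capitals and with Tlr5 as a gene without a match. They are chr5:64933564-64933808 for Tlr1, chr5:64959167-64959416 for Tlr6 (inside an annotated intron of Tlr6), chrX:167264330-167264579 for Tlr8, chr9:106222348-106222597 for Tlr9, chrX:106143025-106143203 for Tlr13 and chr1:182954538-182954787 for Tlr5. Apart from that of Tlr6 they lie upstream of the annotated gene.
Tlr1: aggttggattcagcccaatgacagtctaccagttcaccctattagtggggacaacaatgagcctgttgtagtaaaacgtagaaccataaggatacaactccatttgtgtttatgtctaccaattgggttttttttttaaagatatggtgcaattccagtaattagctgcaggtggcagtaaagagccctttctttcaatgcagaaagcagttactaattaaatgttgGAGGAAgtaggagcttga
Tlr6: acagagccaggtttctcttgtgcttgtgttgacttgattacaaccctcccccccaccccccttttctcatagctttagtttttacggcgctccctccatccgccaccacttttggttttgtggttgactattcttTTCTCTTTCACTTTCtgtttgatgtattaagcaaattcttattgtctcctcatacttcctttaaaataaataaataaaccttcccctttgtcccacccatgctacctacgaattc
Tlr8: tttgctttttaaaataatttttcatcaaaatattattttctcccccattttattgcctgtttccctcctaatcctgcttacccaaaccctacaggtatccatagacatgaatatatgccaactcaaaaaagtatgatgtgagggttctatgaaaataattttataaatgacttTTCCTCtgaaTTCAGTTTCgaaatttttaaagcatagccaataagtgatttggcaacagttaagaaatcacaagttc
Tlr9: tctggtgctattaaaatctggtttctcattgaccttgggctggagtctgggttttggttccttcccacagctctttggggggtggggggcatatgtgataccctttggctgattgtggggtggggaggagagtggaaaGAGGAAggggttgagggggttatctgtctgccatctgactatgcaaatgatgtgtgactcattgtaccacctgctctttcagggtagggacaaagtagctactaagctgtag
Tlr13: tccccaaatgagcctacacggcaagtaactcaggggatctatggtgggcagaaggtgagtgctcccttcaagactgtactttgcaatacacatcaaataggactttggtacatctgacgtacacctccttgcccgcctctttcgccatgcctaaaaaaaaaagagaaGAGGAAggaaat
Tlr5: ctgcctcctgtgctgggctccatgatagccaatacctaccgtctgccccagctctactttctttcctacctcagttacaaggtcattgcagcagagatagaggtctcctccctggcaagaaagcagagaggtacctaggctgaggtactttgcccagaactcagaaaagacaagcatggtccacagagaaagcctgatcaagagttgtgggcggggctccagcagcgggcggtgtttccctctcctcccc
Relative to the start site, the GAGGAA match began at -23 in Tlr1, -83 in Tlr13, -112 in Tlr9 and, on the opposite strand, -77 in Tlr8. Tlr9 had another match at 13 bases into the transcript, which is not shown. The GAAANNGAA matches were on the opposite strand, at -115 and -109 in Tlr6, where they overlap each other, and at -67 in Tlr8.

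Per kilobase of exon, which allows genes to be compared, Tlr2 was the most abundant receptor in every group and in each of the 12 libraries. Its level was 25.5 ± 2.64 CPM per kb (SD, n = 3) for SD mCherry, 52.7 ± 25.5 for HFD mCherry, 42.7 ± 5.29 with Tert and 44.6 ± 16.4 with TertCi, and its lowest library lay above the highest library of the next gene in each group. The order below Tlr2 differed between groups. On the standard diet the receptor mix continued with Tlr4 at 3.01 ± 0.579 CPM per kb and Tlr3 at 2.85 ± 0.778, then Tlr9, Tlr7, Tlr1, Tlr5, Tlr13, Tlr8 and, last, Tlr6 at 0.262 ± 0.0873. In HFD mCherry, Tlr13 was second at 8.79 ± 5.63 CPM per kb, followed by Tlr1 at 7.12 ± 3.56, Tlr4 at 6.62 ± 3.07, Tlr7, Tlr9, Tlr8, Tlr3, Tlr6 and Tlr5. In both knock-in groups the order opened as on the standard diet, with Tlr4 (4.62 ± 1.70 in HFD Tert and 3.40 ± 1.20 in HFD TertCi) and Tlr3 (3.06 ± 1.03 and 3.01 ± 0.969) after Tlr2. Neighbours in these orders overlapped between libraries except at Tlr2 and the gene after it, and at Tlr6 and Tlr5 in HFD mCherry.

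Seen as shares of the summed level of the 10 genes, Tlr2 made up a median of 67.4% of the receptor mix for SD mCherry, 53.3% for HFD mCherry, 78.0% with Tert and 78.0% with TertCi. Its share was lower in every HFD mCherry library (52.3% to 58.4%) than in any other library (61.2% to 82.9%). Tlr13 had the opposite order, with 0.883% to 1.95% of the mix in SD mCherry, 5.67% to 11.1% in HFD mCherry, 0.409% to 4.05% in HFD Tert and 0.515% to 2.01% in HFD TertCi. The summed level itself was 35.6 to 38.3 CPM per kb for SD mCherry, 44.4 to 122 for HFD mCherry, 47.9 to 69.1 with Tert and 39.1 to 80.5 with TertCi. HFD mCherry replicate 15 was the low library, with 44.4 against 121 and 122 in the other two.

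**Figure D1:**
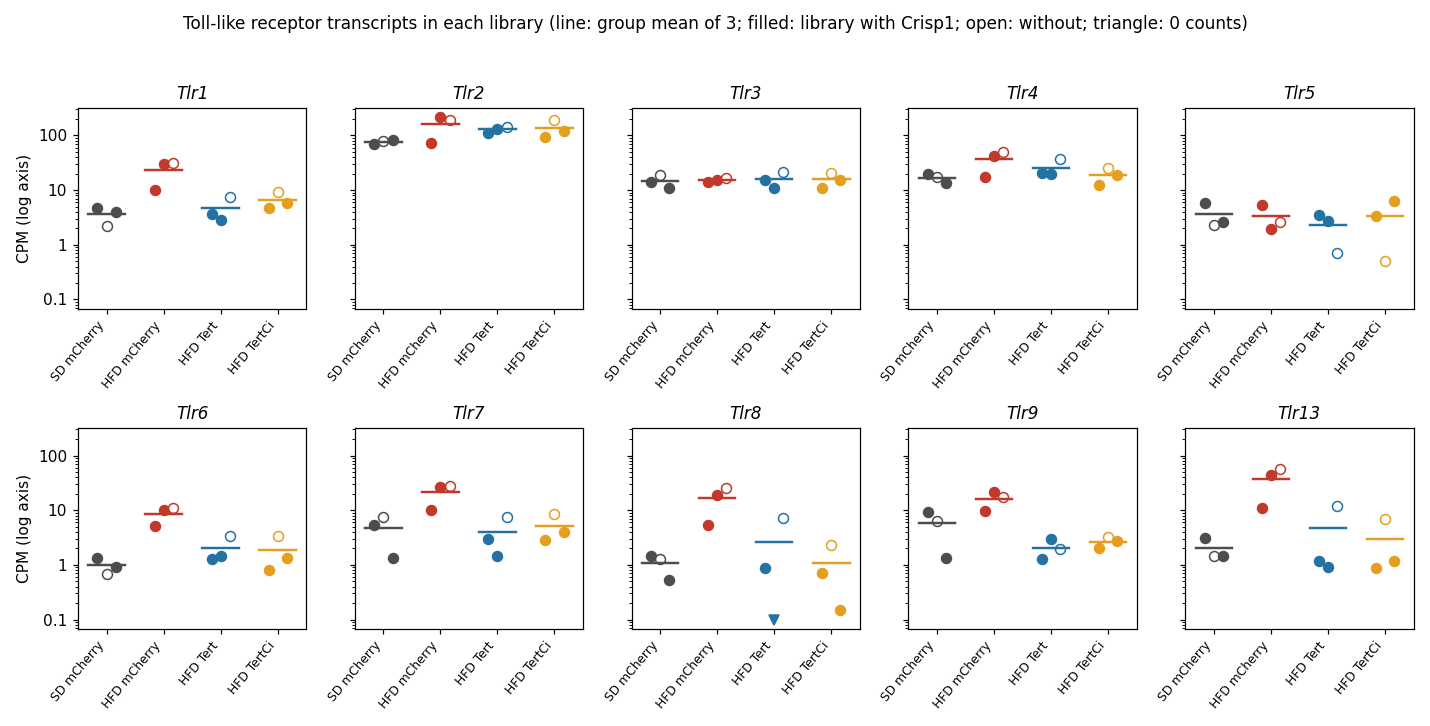
CPM of each of the 10 genes (log axis, 1 panel a gene) in the 12 libraries by group. Points are libraries, filled where Crisp1 was present and open where it was not, lines are means of 3 libraries, and the triangle stands for the 0 counts of Tlr8 in HFD Tert replicate 26. Tlr1, Tlr6, Tlr7, Tlr8, Tlr9 and Tlr13 were higher in each HFD mCherry library than in any SD mCherry library, while Tlr3 stayed between 10.8 and 21.5 CPM throughout.

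The first comparison asks how the standard and the high-fat diet differ in mice of the p21+/mcherry genotype. In HFD mCherry, 9 of the 10 receptor transcripts had a higher estimate than in SD mCherry, with a median log2 fold change of 1.84 over the members against -0.08 over all 16713 genes tested. The 6 genes that did not overlap between the groups were Tlr1, Tlr6, Tlr7, Tlr8, Tlr9 and Tlr13, and 13.9% of all genes were higher without overlap. By edgeR's quasi-likelihood test with adjustment over all genes, 0 members passed an adjusted p of 0.05, as did 0.0479% of genes. At an unadjusted p under 0.05, 8 members were higher, where the share of all genes was 14.1%. DESeq2, run as an alternative, called 5 members higher (Tlr1, Tlr6, Tlr7, Tlr8 and Tlr13), against 8.03% of the genes it tested. In bulk RNA a larger number of expressing cells and more RNA per cell cannot be told apart.

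The surface receptors of lipoproteins came out unequally. Tlr1, a partner of Tlr2 for triacylated lipoproteins, was at 4.73, 2.18 and 3.94 CPM in SD mCherry and at 10.1, 29.6 and 31.8 CPM in HFD mCherry. The groups did not overlap, and its log2 fold change was 2.72 ± 0.553 (SE, edgeR adjusted p = 0.0659). Tlr6, the partner for diacylated lipoproteins, was at 1.32, 0.679 and 0.927 CPM against 5.25, 10.04 and 10.8 CPM. Its libraries were apart as well, with a log2 fold change of 3.15 ± 0.645 (SE, edgeR adjusted p = 0.0659). Tlr2, the shared subunit, was at 68.4, 77.8 and 84.2 CPM against 71.3, 215 and 190.04 CPM. Here HFD mCherry replicate 15 lay within the standard-diet range, and the log2 fold change was 1.05 ± 0.379 (SE, edgeR adjusted p = 0.144). In the fit the partners were 6.57-fold (Tlr1) and 8.85-fold (Tlr6) higher, and the shared subunit 2.07-fold.

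Of the other surface receptors, Tlr4, which binds lipopolysaccharide, was at 19.7, 17.2 and 13.3 CPM in SD mCherry and 17.6, 42.5 and 50.3 CPM in HFD mCherry. Replicate 15 again fell within the standard-diet range, and the log2 fold change was 1.14 ± 0.418 (SE, edgeR adjusted p = 0.148). Tlr5, the receptor of flagellin, was at 5.75, 2.33 and 2.66 CPM against 5.41, 1.92 and 2.57 CPM. The groups overlapped almost fully, and the estimate was -0.12 with a 95% interval from -1.95 to 1.72.

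Among the endosomal receptors, Tlr13, which in mice recognises bacterial ribosomal RNA, had the largest estimate of the 10. It was at 3.11, 1.45 and 1.45 CPM in SD mCherry and 10.8, 45.0 and 57.7 CPM in HFD mCherry, a log2 fold change of 4.23 ± 1.20 (SE, edgeR adjusted p = 0.0900). Tlr8 was at 1.43, 1.26 and 0.521 CPM against 5.30, 19.2 and 25.5 CPM. Its estimate was nearly as large but less certain, 3.95 ± 1.47 (SE, edgeR adjusted p = 0.153). Both genes kept the groups apart, and in both the lowest HFD mCherry value was that of replicate 15.

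Tlr7, a receptor of single-stranded RNA, was at 5.45, 7.42 and 1.33 CPM in SD mCherry and 10.3, 26.3 and 27.6 CPM in HFD mCherry (log2 fold change 2.17 ± 0.761, SE, edgeR adjusted p = 0.134). Tlr9, which binds unmethylated CpG DNA, was at 9.37, 6.45 and 1.33 CPM against 9.61, 21.3 and 17.6 CPM (1.5 ± 0.613, SE, edgeR adjusted p = 0.178). For Tlr9 the groups were separated by a narrow gap, from 9.37 to 9.61 CPM. SD mCherry replicate 3 was the low library for both genes, with 23 counts each. Tlr3, the receptor of double-stranded RNA, was at 14.2, 19.2 and 11.1 CPM against 14.1, 15.3 and 16.8 CPM. Its log2 fold change was 0.05 with a 95% interval from -0.67 to 0.78. Scaling by library size alone moved the median of all genes by -0.20 and put Tlr3 at -0.17, so its direction depends on the scaling, while the other 9 members kept theirs.

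**Figure D2:**
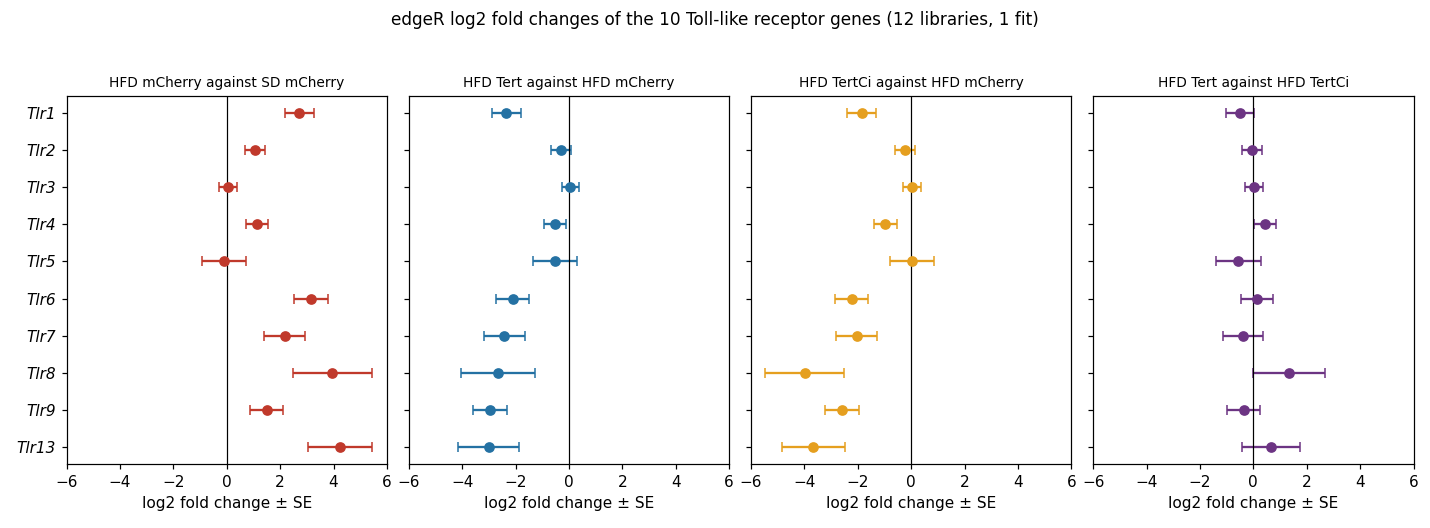
edgeR log2 fold changes with their standard errors for the 10 genes in 4 comparisons of 3 libraries a group, from 1 fit of 12 libraries. In the first panel Tlr13 (4.23) and Tlr8 (3.95) lie farthest to the right, in the panels against HFD mCherry the same genes lie at -2.65 to -3.98, and in the last panel every estimate lies between -0.56 and 1.34.

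HFD mCherry replicate 15 decided part of these calls. Without it edgeR called 5 members higher, namely Tlr1, Tlr2, Tlr4, Tlr6 and Tlr13, with log2 fold changes of 3.08, 1.40, 1.47, 3.41 and 4.67. In that fit 2082 genes were called in either direction, against 8 with all 12 libraries. Without HFD Tert replicate 27, which enters the shared estimate of spread, edgeR called Tlr1, Tlr6 and Tlr13, among 686 genes called. No member was called when any other single library was left out.

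The epididymal transcripts were then taken into account, since 1 library of each group lacked them. In the 8 libraries with Crisp1, 9 of 10 members were higher in HFD mCherry than in SD mCherry, with a median log2 ratio of mean CPM of 1.86. In the 4 libraries without it, 9 of 10 were higher with a median of 1.72, from 1 library a group. Tlr13 gave 3.62 with Crisp1 and 5.31 without, and Tlr1 gave 2.19 and 3.86. When presence of Crisp1 was added to the edgeR model as a term with 2 levels, a choice made after seeing the data, 4 members were called higher: Tlr1 (2.60, adjusted p = 0.0219), Tlr6 (3.04, adjusted p = 0.0209), Tlr7 (2.27, adjusted p = 0.0368) and Tlr13 (3.88, adjusted p = 0.0296). In that fit 6.6% of all genes were called higher.

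**Figure D3:**
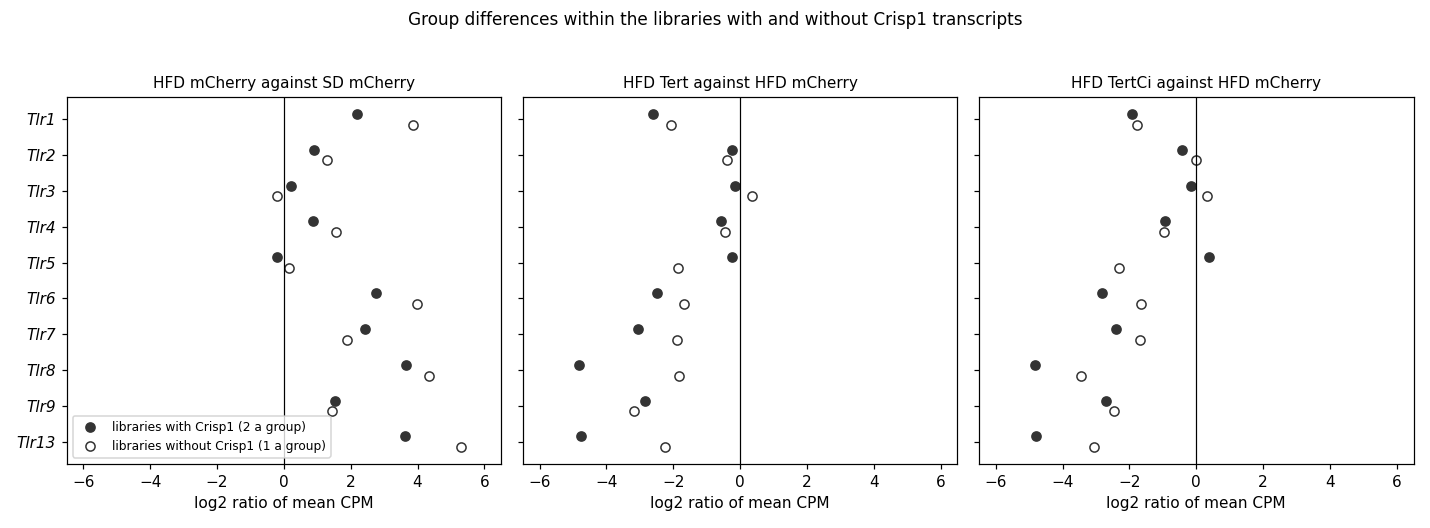
Log2 ratios of mean CPM for the 10 genes in 3 comparisons, computed apart in libraries with Crisp1 (filled, 2 a group) and without it (open, 1 a group). The filled and open points lie on the same side of 0 for Tlr1, Tlr2, Tlr4, Tlr6, Tlr7, Tlr8, Tlr9 and Tlr13 in every panel.

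Macrophage markers moved with the receptors, and so did adipose progenitor markers, as given below. The mean CPM of 13 macrophage genes, among them Adgre1, Csf1r and Cd68, was 44.4 to 70.5 for SD mCherry, 147 to 378 for HFD mCherry, 35.2 to 150 with Tert and 53.3 to 91.6 with TertCi. All 13 had a higher estimate in HFD mCherry than in SD mCherry (median log2 fold change 2.13), 0 were called by edgeR and 10 had an unadjusted p under 0.05, where 14.1% of all genes were higher at that p. Each receptor was therefore also expressed as a percentage of that mean in its own library. Tlr13 stood at 2.06% to 5.10% of the macrophage mean in SD mCherry and at 7.36% to 18.3% in HFD mCherry, without overlap. Tlr8 stood at 1.18% to 2.34% against 3.60% to 8.07%, also without overlap. Tlr13 and Tlr8 were thus higher against these markers too, with log2 ratios of 1.85 and 1.66, and of 1.15 and 1.01 when Adgre1, Csf1r and Cd68 alone were used.

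Tlr6 was likewise higher relative to the macrophage mean by a log2 ratio of 0.88 without overlap, and by 0.21 with overlapping libraries against the 3 markers. Tlr1 (6.58% against 8.25%) and Tlr7 (7.49% against 7.56%) had similar group means of the ratio, with overlap, and with the 3 markers both estimates were below 0 (-0.41 and -0.54). Tlr2, Tlr3 and Tlr4 were lower relative to the macrophage mean in every HFD mCherry library than in any SD mCherry library. The macrophage mean itself was higher in HFD mCherry without overlap, so a gene with little change in CPM, such as Tlr3, falls in this ratio. For none of these ratios was the share of all genes without overlap computed. Tlr2 was at 110.3% to 189.6% of the macrophage mean in SD mCherry and at 48.4% to 60.1% in HFD mCherry. Tlr3 was at 23.3% to 27.2% and at 4.04% to 9.57%. Tlr9 (9.18% against 5.92%, log2 ratio -0.63) overlapped, with -1.14 against the 3 markers. Tlr5 (6.25% against 1.67%, -1.91) overlapped as well, and was lower without overlap against the 3 markers (-2.41). How much of each difference goes with macrophage number was not tested.

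**Figure D4:**
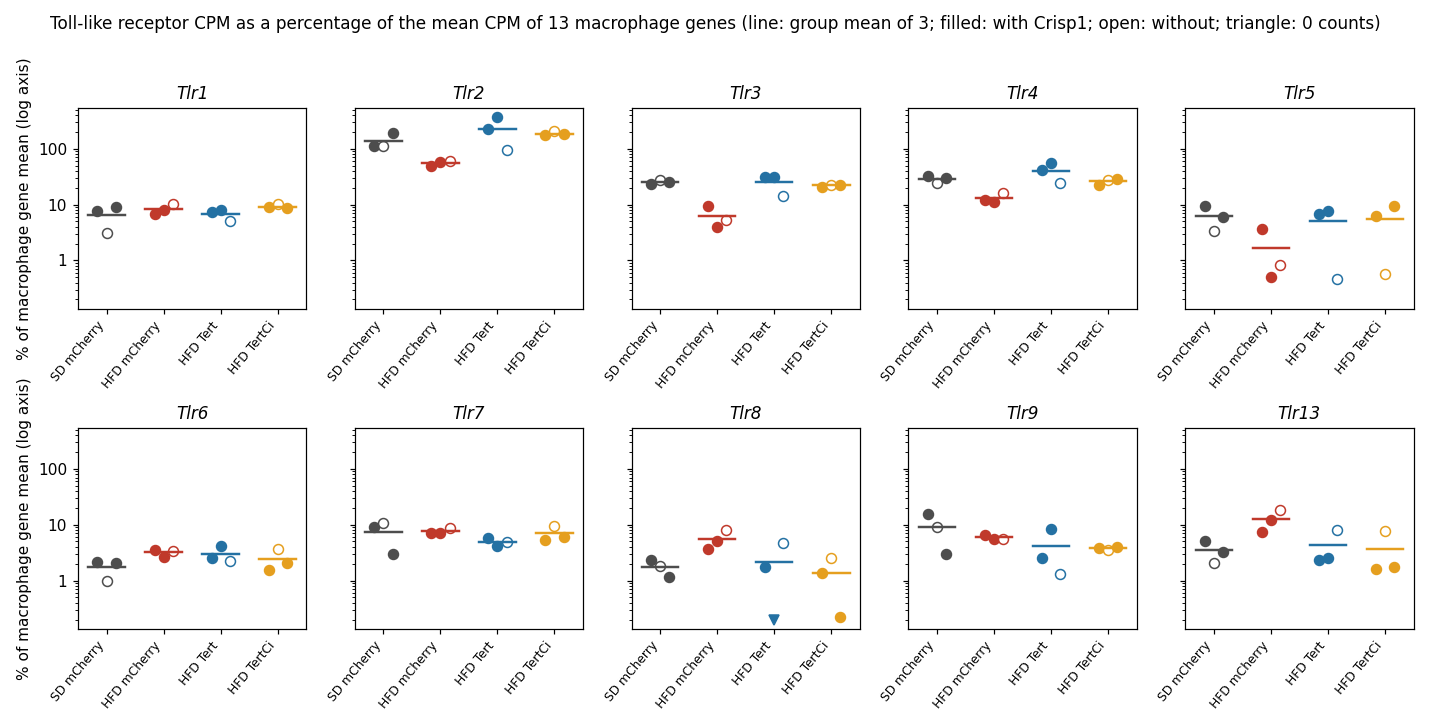
CPM of each gene as a percentage of the mean CPM of 13 macrophage genes in the same library (log axis), with points and lines as in the plot of CPM by library. Tlr13 and Tlr8 were higher in all HFD mCherry libraries than in SD mCherry, and Tlr2, Tlr3 and Tlr4 were lower in HFD mCherry than in every library of the other 3 groups. The macrophage mean itself was higher in HFD mCherry than in SD mCherry and HFD TertCi without overlap.

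Tert expressed from the p21 promoter was compared with mCherry alone on the high-fat diet. These libraries are the same HFD mCherry controls as in the diet comparison, so the values are given side by side and not as separate evidence. In HFD Tert, 9 of 10 receptors had a lower estimate than in HFD mCherry, with a median log2 fold change of -2.22 against -0.05 over all genes. edgeR called 0 members and 0% of genes. The 5 members lower at an unadjusted p under 0.05 were Tlr1, Tlr6, Tlr7, Tlr9 and Tlr13, where the share of all genes was 9.75%. Tlr1, Tlr6, Tlr7 and Tlr9 did not overlap, and 11.1% of genes were lower without overlap. DESeq2 called those 4 lower, against 3.09% of its genes.

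Tlr9 was at 1.28, 2.99 and 1.94 CPM in HFD Tert against 9.61 to 21.3 CPM in HFD mCherry. Its log2 fold change was -2.96 ± 0.649 (SE, edgeR adjusted p = 0.184). Tlr1 was at 3.68, 2.83 and 7.52 CPM (-2.35 ± 0.545, SE, edgeR adjusted p = 0.187), Tlr6 at 1.28, 1.44 and 3.35 CPM (-2.10 ± 0.616, SE, edgeR adjusted p = 0.199) and Tlr7 at 2.98, 1.44 and 7.46 CPM (-2.43 ± 0.769, SE, edgeR adjusted p = 0.217). All 3 were highest in HFD Tert replicate 27, the library of the group without Crisp1, which also had the highest macrophage mean (150 CPM). Their HFD Tert libraries nevertheless lay below each HFD mCherry library.

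Tlr13 and Tlr8 depended on that library. Tlr13 was at 1.17, 0.908 and 12.05 CPM in HFD Tert, so that replicate 27 lay above HFD mCherry replicate 15. Tlr8 was at 0.875, 0 and 7.11 CPM, and the 0 counts in replicate 26 allow up to 0.160 CPM at a floor of 3 counts. The log2 fold changes were -3.01 ± 1.13 (SE, edgeR adjusted p = 0.246) and -2.65 ± 1.39 (SE, edgeR adjusted p = 0.361). Without replicate 27 they were -5.18 and -5.24.

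Tlr2, Tlr3, Tlr4 and Tlr5 overlapped between HFD Tert and HFD mCherry. Tlr2 was at 113, 129 and 144 CPM, within the HFD mCherry range of 71.3 to 215 CPM, and Tlr4 at 20.95, 19.5 and 36.5 CPM, within 17.6 to 50.3 CPM. Tlr3 was at 15.5, 10.8 and 21.5 CPM and Tlr5 at 3.44, 2.72 and 0.705 CPM. Their log2 fold changes were -0.30, -0.52, 0.05 and -0.53 in the order Tlr2, Tlr4, Tlr3, Tlr5, with the 95% interval of Tlr2 running from -1.13 to 0.53.

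The catalytically inactive enzyme gave a like set of values. In HFD TertCi, 8 of 10 receptors were lower than in HFD mCherry by estimate (median -1.95, all genes -0.04). edgeR called 0 members and 0.012% of genes, and 7 members were lower at an unadjusted p under 0.05, where all genes gave 8.92%. The 6 genes without overlap were Tlr1, Tlr6, Tlr7, Tlr8, Tlr9 and Tlr13, against 12% of genes. DESeq2 called Tlr1, Tlr6, Tlr8, Tlr9 and Tlr13 lower, against 2.57% of its genes.

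Tlr9 was at 2.04, 3.22 and 2.71 CPM in HFD TertCi, with a log2 fold change of -2.61 ± 0.639 (SE, edgeR adjusted p = 0.186). Tlr8 was at 0.714, 2.32 and 0.150 CPM, of which the last corresponds to 3 counts (-3.98 ± 1.48, SE, edgeR adjusted p = 0.266). Tlr13 was at 0.867, 6.95 and 1.15 CPM (-3.67 ± 1.17, SE, edgeR adjusted p = 0.231). Tlr1 was at 4.74, 9.27 and 5.71 CPM and Tlr6 at 0.816, 3.41 and 1.35 CPM, with log2 fold changes of -1.86 and -2.23. Tlr7 was at 2.86, 8.63 and 4.06 CPM (-2.05). The library without Crisp1, replicate 31, was the highest of the group for each of these 6 genes, and without it Tlr13 and Tlr8 were at -5.22 and -5.25.

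For the remaining 4 genes the HFD TertCi libraries overlapped those of HFD mCherry. Tlr2 was at 92.8, 189 and 121 CPM (-0.24), Tlr4 at 12.2, 25.5 and 18.9 CPM (-0.96 ± 0.416, SE, edgeR adjusted p = 0.319), Tlr3 at 10.9, 20.9 and 15.2 CPM (0.03) and Tlr5 at 3.32, 0.515 and 6.32 CPM (0.04). Tlr5 was lowest in its group in HFD TertCi replicate 31 and in HFD Tert replicate 27, both without Crisp1.

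Set directly against each other, HFD Tert and HFD TertCi did not separate any receptor by CPM. edgeR called 0 members and 0% of genes, 0 members had an unadjusted p under 0.05 (1.36% of genes), 0 were free of overlap (5.13% of genes) and DESeq2 called 0 (0.0487% of its genes). Log2 fold changes ran from -0.56 for Tlr5 to 1.34 for Tlr8. The 95% intervals bound this comparison: from -0.89 to 0.77 for Tlr2 and from -0.70 to 0.75 for Tlr3, but from -1.65 to 0.67 for Tlr1, from -1.71 to 1.00 for Tlr9 and from -1.68 to 4.35 for Tlr8. Differences inside those limits remain compatible with these libraries.

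With the mean of the 2 knock-in groups set against HFD mCherry, 6 libraries against 3, 9 of 10 receptors had a lower estimate and the median was -2.13 (all genes -0.05). edgeR called 0 members and 0.168% of genes. Tlr9 (-2.78 ± 0.505, SE) and Tlr1 (-2.10 ± 0.432, SE) were nearest to the threshold, at adjusted p = 0.0546 and 0.0560 by edgeR. They were followed by Tlr6 (-2.16, adjusted p = 0.0716), Tlr13 (-3.34, adjusted p = 0.0943), Tlr7 (-2.24, adjusted p = 0.0967) and Tlr8 (-3.31, adjusted p = 0.141). These 6 had an unadjusted p under 0.05, where all genes gave 13.4%, and Tlr1, Tlr6, Tlr7 and Tlr9 were free of overlap, against 7.03% of genes. DESeq2 called the same 6, against 5.37% of its genes.

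The calls in that comparison turned on single libraries and on the epididymal transcripts. edgeR called Tlr1, Tlr6 and Tlr9 without HFD mCherry replicate 15, Tlr1 and Tlr9 without SD mCherry replicate 3, and Tlr1, Tlr6, Tlr7, Tlr8, Tlr9 and Tlr13 without HFD Tert replicate 27. The number of all genes called also moved with the library left out. It is given below as a range, against 28 genes with all 12 libraries. With the Crisp1 term those 6 were called as well, at adjusted p = 0.0243 to 0.0442, where 3.12% of genes were called lower. For the groups taken singly the Crisp1 term gave 0 members, and 0% (HFD Tert) and 0.012% (HFD TertCi) of genes called lower. Within the libraries with Crisp1, 10 of 10 members were lower in HFD Tert (median -2.55) and 9 of 10 in HFD TertCi (-2.16). Within those without it, 9 of 10 were lower in each (-1.85 and -1.73). An F-test over the 4 groups in edgeR called 0 members and 0.012% of genes, with adjusted p of 0.122 for Tlr1, Tlr6 and Tlr9, the lowest of the 10.

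Relative to the macrophage mean, the knock-in groups differed from HFD mCherry for some receptors and not for others. Tlr2 was at 96.2% to 366% of the macrophage mean in HFD Tert and 174% to 207% in HFD TertCi, above the 48.4% to 60.1% of HFD mCherry in each library, and Tlr3 and Tlr4 were likewise above it without overlap. The macrophage mean itself was below that of HFD mCherry in every knock-in library except HFD Tert replicate 27. For both knock-ins together, 12 of the 13 macrophage genes had a lower estimate than in HFD mCherry. By edgeR these 12 had an unadjusted p under 0.05, where all genes gave 13.4%, and 0 were called. A gene with little change in CPM therefore tends to rise in this ratio, and the share of all genes was again not computed. Tlr8 was at 0% to 4.74% and 0.226% to 2.53%, against 3.60% to 8.07% in HFD mCherry, and HFD TertCi did not overlap. Tlr13 was at 2.30% to 8.03% and 1.63% to 7.59%, overlapping the 7.36% to 18.3% of HFD mCherry. Tlr9 was at 1.29% to 8.49% in HFD Tert and 3.52% to 4.06% in HFD TertCi, against 5.57% to 6.53%, and its log2 ratio to HFD mCherry, -0.53 and -0.64, was -0.07 and -0.17 with the 3 markers. Tlr1 (group means of 6.76% and 9.20% against 8.25%) and Tlr6 (2.95% and 2.43% against 3.22%) overlapped HFD mCherry in both knock-ins when the 13 genes were used. Between the knock-ins Tlr1 was lower in HFD Tert without overlap, at 5.01% to 8.04% against 8.57% to 10.1% in HFD TertCi (log2 ratio -0.44). With the 3 markers these libraries overlapped, and the other members overlapped between the knock-ins on both scales. Tlr7 was lower in HFD Tert, at 4.10% to 5.86% against 6.96% to 8.73%, and overlapped in HFD TertCi. Against the 3 markers the HFD TertCi libraries of Tlr1 were higher than those of HFD mCherry without overlap, at 14.9% to 17.02% against 9.59% to 10.8% (log2 ratio 0.66). Those of Tlr7 were also higher without overlap, by a narrow gap, at 10.25% to 14.96% against 8.52% to 10.21% (0.35), where the estimate against the 13 genes was -0.12. The HFD Tert libraries of both genes, and Tlr6 in both knock-ins, overlapped HFD mCherry against the 3 markers.

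Other cell types of the fraction were measured in the same way. Summed mast cell markers ran from 38.4 to 185 CPM in SD mCherry, from 98.6 to 320 CPM in HFD mCherry and from 76.2 to 138 CPM in the 6 knock-in libraries. Adipose progenitor markers ran from 2971 to 4797 CPM, from 7660.1 to 22537 CPM and from 4137 to 10990.1 CPM in the same order. Of 10 progenitor genes, 9 had a higher estimate in HFD mCherry than in SD mCherry. By edgeR 8 of these had an unadjusted p under 0.05, where all genes gave 14.1%. In the knock-ins 9 of 10 had a lower estimate than in HFD mCherry. Of these, edgeR called 1 lower in HFD TertCi (adjusted p = 0.0426, where 0.012% of all genes were called). It also called 1 lower in both knock-ins together (adjusted p = 0.0119, 0.168% of all genes). Dendritic cell markers ran from 224 to 289 CPM in SD mCherry, from 325 to 847 CPM in HFD mCherry and from 388 to 890 CPM in the knock-in libraries. B cell markers stayed at or below 35.4 CPM and neutrophil markers at or below 20.9 CPM in every library. T and NK cell markers reached 184 CPM in HFD mCherry replicate 15 and lay at or below 58.3 CPM in the other 11 libraries. Of 7 mesothelial markers, 6 had a lower estimate in HFD mCherry than in SD mCherry and 6 a higher one in the knock-ins than in HFD mCherry. The neutrophil marker Ngp was at 0 in HFD TertCi. Endothelial markers ran from 826 to 1174 CPM in SD mCherry and from 1604 to 2913 CPM in HFD mCherry, without overlap. In the knock-ins they ran from 2014 to 5101 CPM, and 8 of 8 had a higher estimate than in HFD mCherry, the opposite direction to the receptors. Adipocyte markers were present in every library, at 299 to 681 CPM in SD mCherry, 1615 to 4412 CPM in HFD mCherry and 888 to 7345 CPM in the knock-ins. By edgeR 1 of 9 adipocyte genes was called lower in HFD mCherry than in SD mCherry (adjusted p = 0.0219, 0.0479% of all genes called). In both knock-ins together 1 was called higher than in HFD mCherry (edgeR adjusted p = 0.0443, 0.168% of all genes). The part of these cells in the receptor values was not tested.

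The rest of the pathway was described with 7 lists of 74 genes, of which 72 were tested. In HFD mCherry against SD mCherry 58 of these 72 had a higher estimate (median log2 fold change 0.73) and edgeR called 0, with 36 higher and 4 lower at an unadjusted p under 0.05. Over all 16713 genes 14.1% were higher and 1671 genes lower at that p. Target cytokines and enzymes had the highest median of the lists with several genes, 1.75 with 16 of 17 higher, and kinases and ubiquitin ligases the lowest, 0.29 with 9 of 15 higher. Against HFD mCherry, the 2 knock-in groups together had 55 of 72 lower (median -0.36), again with 0 called by edgeR and 22 lower at an unadjusted p under 0.05, where all genes gave 13.4%.

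Co-receptors and chaperones were higher by estimate for 11 of 11 genes in HFD mCherry (median 1.27) and lower for 9 of 11 in the knock-ins (-0.96). Cd14, which passes lipopolysaccharide to Tlr4, averaged 502 ± 93.6 CPM (SD, n = 3) for SD mCherry, 1165 ± 453 for HFD mCherry, 567 ± 68.8 with Tert and 621 ± 65.0 with TertCi. Its HFD mCherry libraries lay above all libraries of the other groups, with log2 fold changes of 1.22 ± 0.298 for diet (SE, edgeR adjusted p = 0.0729), -1.04 for Tert and -0.91 for TertCi. Cd36, a fatty acid transporter that also assists Tlr2, was at 157 ± 81.0 CPM in SD mCherry and 1459 ± 684 in HFD mCherry (3.21 ± 0.714, SE, edgeR adjusted p = 0.0685). It overlapped between HFD mCherry and both knock-in groups (927 ± 748 and 675 ± 149 CPM). Hsp90b1, a chaperone of most Toll-like receptors, was at 709 ± 15.9 CPM in SD mCherry and 1108 ± 144 in HFD mCherry (0.64).

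The adaptors differed among themselves. Myd88 averaged 93.0 ± 6.82 CPM (SD, n = 3) for SD mCherry, 139 ± 32.98 for HFD mCherry, 126 ± 20.8 with Tert and 126 ± 43.6 with TertCi, a log2 fold change of 0.58 for diet and -0.14 for each knock-in. Ticam1 was at 36.8 ± 10.1, 46.2 ± 5.64, 26.1 ± 4.86 and 29.8 ± 7.63 CPM in the same order of groups. It overlapped between diets but not between HFD mCherry and either knock-in (-0.82 and -0.63, edgeR adjusted p = 0.219 and 0.309). Pik3ap1, which links these receptors to phosphoinositide signalling, was at 10.2 ± 3.17, 31.6 ± 15.1, 6.99 ± 3.05 and 13.3 ± 2.34 CPM, with log2 fold changes of 1.62 for diet, -2.18 for Tert and -1.25 for TertCi (edgeR adjusted p = 0.0895, 0.176 and 0.263).

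Downstream, Tab2, a binding subunit of a kinase complex, and Ripk1 and Irak2, which belong to kinase families, overlapped between the diets and had log2 fold changes of 0.38, 0.43 and -0.35. Of the transcription factors, Nfkb1 averaged 179 ± 27.1 CPM (SD, n = 3) in SD mCherry and 603 ± 291 in HFD mCherry (1.75 ± 0.427, SE, edgeR adjusted p = 0.0729), and Nfkb2 at 148 ± 24.5 and 344 ± 134 CPM (1.21). Rela, whose product pairs with that of Nfkb1, was at 382 ± 177 and 394 ± 132 CPM (0.04). In the knock-ins Nfkb1 was at 413 ± 128 and 483 ± 191 CPM, overlapping HFD mCherry. The inhibitors Nfkbia, Tnfaip3 and Dusp1, themselves induced by this signalling, had log2 fold changes of 0.82, 1.26 and 0.75 for diet, and all 3 overlapped between HFD mCherry and the knock-ins.

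Of the target genes, the neutrophil chemokine Cxcl1 averaged 993 ± 284 CPM (SD, n = 3) for SD mCherry, 5225 ± 2778 for HFD mCherry, 2626 ± 774 with Tert and 3481 ± 1869.9 with TertCi. Its SD and HFD mCherry libraries did not overlap (2.40 ± 0.550, SE, edgeR adjusted p = 0.0708), and those of the knock-ins overlapped HFD mCherry. Cxcl2 had log2 fold changes of 1.89 for diet (edgeR adjusted p = 0.0739), -0.89 for Tert and -0.90 for TertCi. Ptgs2, the inducible prostaglandin synthase, was the 1 target with a lower estimate in HFD mCherry (-0.37), and its libraries overlapped between all groups.

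**Figure D5:**
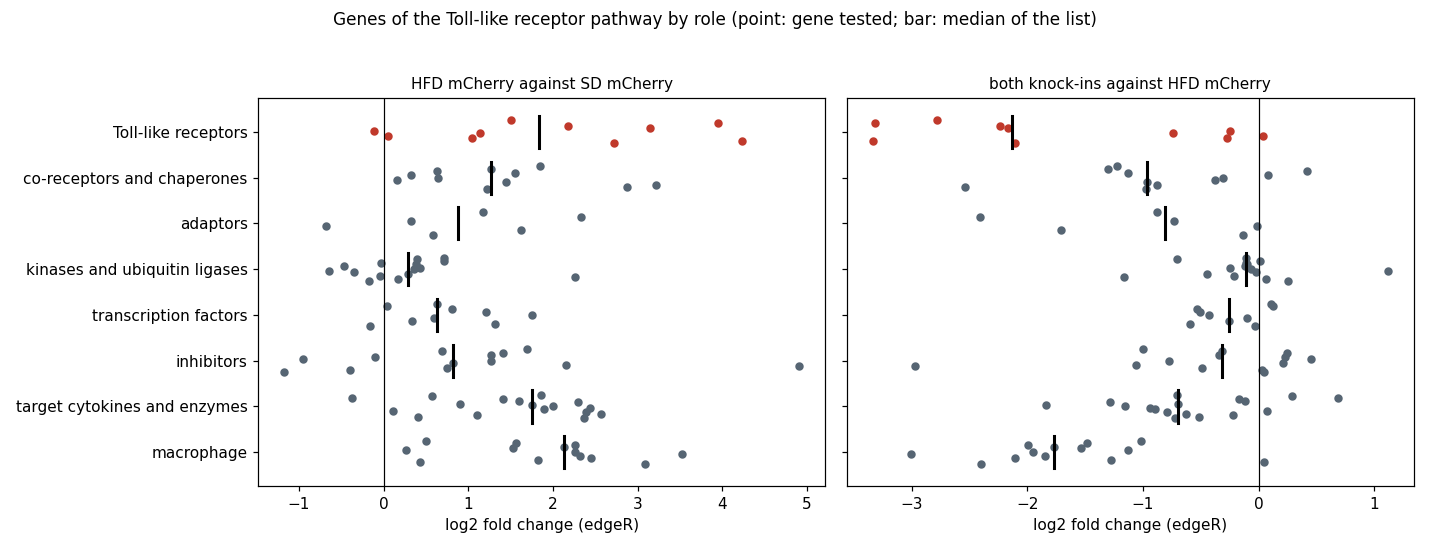
edgeR log2 fold changes of each tested gene by role, with a bar at the median of the list, for diet (left) and for both knock-in groups against HFD mCherry (right). Receptors (red) have medians of 1.84 and -2.13, macrophage genes 2.13 and -1.77, and kinases and ubiquitin ligases 0.29 and -0.11.

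Tlr11 and Tlr12, the mouse receptors of the same family that are not among the 10, behaved apart. Tlr11 was too low to be tested, at 0.301 CPM or less in each library. Tlr12, which binds protozoan profilin, averaged 12.9 ± 11.4 CPM (SD, n = 3) in SD mCherry and at 1.30 ± 1.25, 0.372 ± 0.324 and 0.680 ± 0.155 CPM in the high-fat groups. SD mCherry ran from 0.579 to 23.0 CPM, so the log2 fold change of -3.30 ± 1.27 (SE, edgeR adjusted p = 0.162) rests on 2 of its 3 libraries.

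Genes whose log2 CPM was most like that of each receptor over the 12 libraries were taken from 12349 others with a mean of at least 5 CPM. Pearson's r is given as a description, since these libraries share group, Crisp1 content and scaling. For Tlr7 the 3 nearest genes were Lrrc8d (r = 0.987), Cd180 (0.982), a receptor-like protein of myeloid and B cells, and C5ar1 (0.980), a complement receptor. For Tlr13 they were Ptafr (0.976), Gm21975 and Myo1f, and for Tlr8 Tm4sf19 (0.954), Lair1 and Aph1c. Tlr1 had Pianp (0.986), Gpr35 and Cpxm1, and Tlr6 had Prrx1 (0.971), Slc11a1 and Pianp. Tlr9 had Ric8b (0.944), Phf3 and Larp4b.

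The other 4 receptors had other neighbours: Pam (0.989), Cast and Sipa1l2 for Tlr2, Gabpa (0.975), Mbnl1 and Myo5a for Tlr4, Zfp52 (0.942), Ackr2 and Smad5 for Tlr3, and Zkscan8 (0.948), Ccdc77 and Med14 for Tlr5. Between members, r was 0.953 for Tlr6 and Tlr13, 0.944 for Tlr1 and Tlr6 and 0.932 for Tlr8 and Tlr13. It was 0.667 for Tlr2 and Tlr1, and below 0 for Tlr5 with each other member except Tlr9 (0.142).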

How the data were processed

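The deposited values are raw read counts per gene, 1 table a library, made by the authors with featureCounts 1.6.4 of the Subread package on build mm10, with SAMtools also named, per the submitters' processing notes. The aligner, the gene annotation and the strand setting are not given in the sources used here. RNA was poly-A selected and primed with random hexamers, per the labels' protocols. Because poly-A selected reads of a gene grow in number with its length, levels were compared between genes per kilobase of GENCODE exon.

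All 12 tables were read together (16713 of 24422 features passed filterByExpr), scaled by TMM and fitted with edgeR 4.0.16 (R 4.3.3) by the robust quasi-likelihood method with group as the only term. Contrasts were tested at a Benjamini-Hochberg adjusted p of 0.05 over all genes. CPM uses TMM-scaled library sizes. Alternatives were DESeq2 1.42.0, limma 3.58.1 (voom), library-size scaling, other filters, the compared groups alone, an epithelial score as covariate, and each library left out. A term for the presence of Crisp1 was chosen after seeing the data. The scripts were tested on simulated data.

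Replicates of a group differed by a chi-square of 21.5 to 352 per degree of freedom, so none are copies. The members and gene lists were chosen with earlier results of these data known. Beside the members, the text names the 3 most abundant genes of each pathway list, the 3 genes most like each member, and markers. Promoter sequences are from RefSeq (GRCm38.p6). The floor of 3 counts covers counting error only.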

Additional observations from a re-analysis of the deposited data

How the results depend on the processing

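The direction of the fold changes of Tlr1, Tlr4, Tlr6, Tlr7, Tlr8, Tlr9 and Tlr13 held under every alternative in the diet comparison and in both knock-in comparisons, while the calls depended on the method. No paired analysis was possible because no replicate number occurs in more than 1 group. In the diet comparison edgeR called 8 genes, against 1988 with DESeq2, 0 with limma-voom, 0 with the compared groups alone, 1315 with an epithelial score as covariate and 1508 with the Crisp1 term. Called members numbered 5 with DESeq2, 4 with the score and 4 with the Crisp1 term. For HFD Tert against HFD mCherry (0 genes) DESeq2 called 810 genes and 4 members, and the score 1084 and 5. For HFD TertCi (2 genes) DESeq2 called 599 genes and 5 members, library size alone 1 gene, the compared groups alone 0, and the score 651 and 5. Between HFD Tert and HFD TertCi (0 genes) DESeq2 called 10. For both knock-ins (28 genes) the counts of genes were 1442 with DESeq2, 12 with limma-voom, 121 with library size, 68 with the compared groups alone, 1685 with the score and 719 with the Crisp1 term, and those of members 6, 0, 1, 1, 7 and 6. The F-test (2 genes) gave 2224 genes with DESeq2, 0 with limma-voom, 1177 with the score and 280 with the Crisp1 term, and 6, 0, 5 and 3 members. The cause of these differences was not tested. The other filters kept every count within 1.5 times.

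Leaving out each library in turn gave 0 to 2082 genes for diet, 0 to 51 for HFD Tert, 0 to 198 for HFD TertCi, 0 to 690 for both knock-ins and 0 to 651 in the F-test, and 0 to 5 members for diet, 0 to 6 for both knock-ins and 0 to 3 in the F-test. The highest gene counts came without HFD mCherry replicate 15. Log2 fold changes that changed sign on leaving out a library ranged from -0.12 to 0.28 (Tlr3) and -0.67 to 0.40 (Tlr5) for diet, and from -0.22 to 0.26 (Tlr3) and -0.94 to 0.0284 (Tlr5) for HFD Tert. For HFD TertCi they ranged from -0.59 to 0.0386 (Tlr2), -0.24 to 0.23 (Tlr3) and -0.78 to 0.59 (Tlr5), and for both knock-ins from -0.62 to 0.00782 (Tlr2), -0.0991 to 0.15 (Tlr3) and -0.65 to 0.31 (Tlr5). Between HFD Tert and HFD TertCi the ranges were -0.27 to 0.27 (Tlr2), -0.25 to 0.29 (Tlr3), -1.07 to 0.25 (Tlr5), -0.44 to 0.89 (Tlr6), -1.23 to 0.19 (Tlr7), -1.26 to 2.60 (Tlr8) and -1.51 to 2.21 (Tlr13).

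Other sign changes were in estimates near 0 or in the contrast of the knock-ins. Library size alone gave Tlr3 -0.17 for diet. limma-voom gave Tlr3 -0.00830 for HFD Tert, -0.0373 for HFD TertCi and -0.0228 for both, Tlr5 -0.31 for HFD TertCi, and Tlr8 -0.27 between the knock-ins. The epithelial score gave Tlr3 -0.0629 and Tlr5 0.22 for diet, Tlr3 -0.0710 for HFD Tert and -0.0269 for both, and Tlr5 -0.12 for HFD TertCi. Between the knock-ins it gave -0.0883 for Tlr3, -0.0682 for Tlr6 and -0.19 for Tlr13. The Crisp1 term gave -0.0145 for Tlr3 and -0.36 for Tlr5 in HFD TertCi, and -0.00383 for Tlr3 in both. Ratios to 3 macrophage markers instead of 13 gave Tlr1 -0.41 for diet, 0.30 for HFD Tert and 0.49 for both, Tlr6 0.40, 0.0280 and 0.23 for HFD Tert, HFD TertCi and both, and Tlr7 -0.54 for diet and 0.000679, 0.35 and 0.19 for the same 3 comparisons. Depth limits Tlr8 in the knock-ins, where 2 of 6 libraries had 3 counts or fewer.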

Other observations

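Other genes that work with these receptors were picked after their values were seen, so their values are descriptions. Cd180, a receptor-like protein related to the Toll-like receptors and the second nearest gene to Tlr7, averaged 6.04 CPM for SD mCherry, 44.3 for HFD mCherry, 7.40 with Tert and 7.80 with TertCi. Unc93b1, the chaperone of the endosomal receptors, was at 48.4, 174, 78.7 and 70.9 CPM in the same order of groups. Neither passed an adjusted p of 0.05 in edgeR for diet (0.0841 and 0.0895).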
